A study of Drosophila melanogaster with 18 samples.

Results

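Transcript levels of 9 *Drosophila melanogaster* genes that move metabolites across the mitochondrial membranes were followed in 18 RNA-seq samples. The genes were chosen by symbol, as 8 members of the mitochondrial carrier family (*sesB*, *Ant2*, *Mpcp*, *mfrn*, *colt*, *Bmcp*, *Ucp4A* and *aralar1*) and the outer membrane channel *porin*. All 9 were found among the 15682 gene symbols counted. The study fed the drug RU486 (mifepristone) to male flies, since GeneSwitch (GS), a Gal4 activator that switches on transgenes when RU486 is present, is driven in this way. In each of 3 stocks, flies that had eaten 100 µM RU486 for 10 days were compared with flies of that stock given its solvent, ethanol.

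The 6 groups were thoraces of *Act88F-GS-Gal4* flies fed RU486, thoraces of *Act88F-GS-Gal4* ethanol controls, thoraces of *w1118* flies fed RU486, thoraces of *w1118* ethanol controls, heads of *elav-GS-Gal4* flies fed RU486 and heads of *elav-GS-Gal4* ethanol controls, with 3 samples per group. *Act88F-GS-Gal4* carries GeneSwitch under the promoter of a flight muscle actin gene and is 1 insertion line, picked for little activity without the drug, whereas *elav-GS-Gal4* carries it under a promoter active in neurons. *w1118* carries no GeneSwitch, so that its RU486 group shows the drug without the activator. No responder transgene is named in the labels of any group. A thorax is mostly flight muscle but also holds fat body, nerve and gut. In such bulk samples fewer cells of a type and less RNA per cell cannot be told apart. The labels do not say that the 3 samples of a group came from separate cultures (the methods call them biological triplicates), so p-values measure the spread between these samples.

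Mitochondrial carriers are small inner membrane proteins that exchange or co-transport nucleotides, phosphate, amino acids, acylcarnitines or metal ions, and porins let the same solutes cross the outer membrane. Flight muscle is among the most densely mitochondrial tissues of the fly, and its ATP reaches the myofibrils by a chain of transporters: phosphate enters by the phosphate carrier, ATP leaves for ADP by the ADP/ATP translocase, and both cross the outer membrane by porin. Uncoupling proteins belong to the same carrier family.

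The samples held 34020840 to 96176923 reads on genes (median 62727340). Levels are CPM, read counts scaled to the size of the library with TMM factors over all 18 samples, or FPKM, which also divides by transcript length, where genes are compared with each other. The head files list 0 unaligned reads and the thorax files do not, so that heads and thoraces may have been processed differently, and levels set side by side between them carry that doubt. All 10 flight muscle markers were detected in every sample, and their summed level was 16719, 18640 and 30562 CPM in RU486 replicates 1 to 3 of *Act88F-GS* against 33521, 38094 and 38075 CPM in its controls. Photoreceptor markers were high in heads, as were neuron markers, and 1 thorax library, *Act88F-GS* control replicate 1, held 2044 CPM of photoreceptor markers where the other 2 controls held 148 and 182 CPM. Transcripts of testis markers appeared in some *w1118* thorax and *elav-GS* head libraries and are described with *Ant2*.

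In *Act88F-GS* thoraces, 5 of the 9 genes (*Ucp4A*, *porin*, *sesB*, *mfrn* and *colt*) were lower with RU486 and 2 (*aralar1* and *Mpcp*) were higher, while *Ant2* and *Bmcp* did not pass the test. Calls were made with edgeR's quasi-likelihood test at a Benjamini-Hochberg adjusted p under 0.05 over all genes tested. Among all 10600 genes tested in these thoraces, 19.9% were called lower and 12.6% higher. The median log2 fold change was -0.34 over the 9 genes and 0.01 over all genes tested. The RU486 samples lay wholly below the controls for 5 of the 9 genes, wholly above for 2 and overlapped for 2, against 22.1% of all tested genes below and 29.8% above. Summed over the 9 genes, their share of reads was 0.383%, 0.416% and 0.537% in RU486 samples and 0.616%, 0.728% and 0.700% in controls. Leaving out 1 library changed the count of lowered genes to 3 (without RU486 replicate 1, RU486 replicate 2, control replicate 2 or control replicate 3) or 4 (without control replicate 1), and left it at 5 without RU486 replicate 3. The count of raised genes was 0 or 1 in each of these fits.

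**Figure D1:**
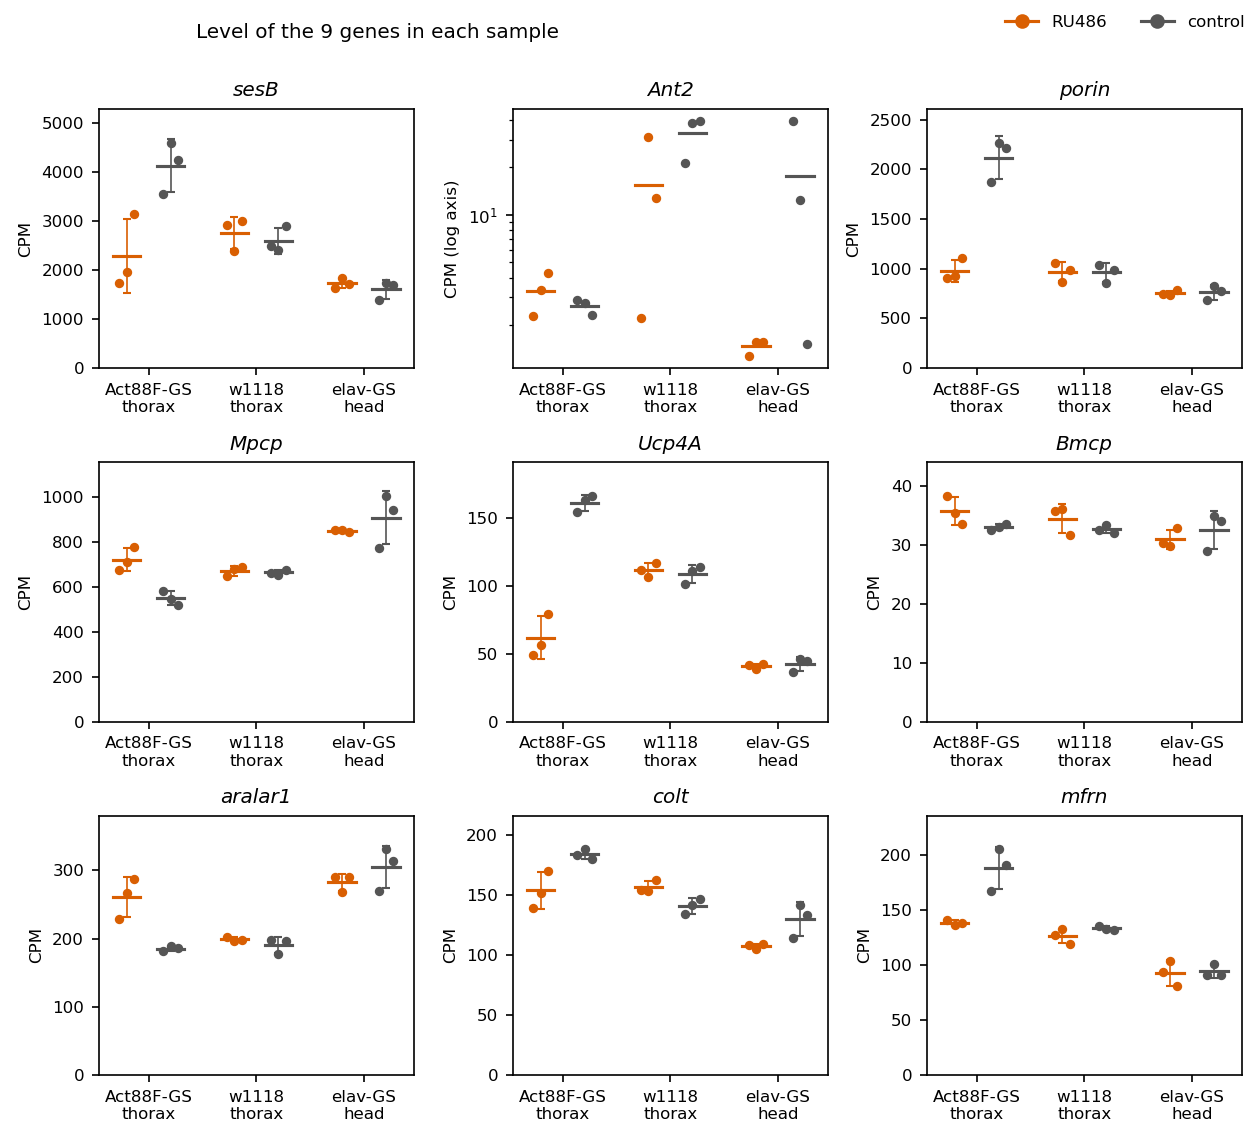
Level of each of the 9 genes in CPM (vertical axes, *Ant2* on a log axis) in RU486 and control samples of the 3 stocks. Points are samples, horizontal lines are group means and bars are the SD (n = 3, no bars for *Ant2*). For *sesB*, *porin*, *Ucp4A*, *mfrn* and *colt* every RU486 sample of *Act88F-GS* thoraces lies below every control sample.

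*sesB* encodes the main ADP/ATP translocase of the adult fly and lies on the minus strand of chromosome X at 10780893 to 10786958 (BDGP6.54, as are all coordinates here). It had 1745, 1968 and 3153 CPM in *Act88F-GS* thoraces fed RU486, against 3552, 4602 and 4251 CPM in their controls. The third RU486 sample was much nearer the controls than the other 2, but no RU486 sample reached a control. *sesB* fell by 0.93 on the log2 scale (SE 0.25, edgeR adjusted p = 0.0335). The call was lost without RU486 replicate 1 (adjusted p = 0.0772), RU486 replicate 2 (0.116), control replicate 2 (0.103) or control replicate 3 (0.0935), and the change was -1.23 without RU486 replicate 3. In *w1118* thoraces, *sesB* had 2912, 2389 and 2996 CPM with RU486 and 2492, 2414 and 2906 CPM in controls, and these groups overlapped (log2 fold change 0.087, adjusted p = 0.744). In *elav-GS* heads it had 1644, 1833 and 1711 CPM with RU486 and 1387, 1741 and 1702 CPM in controls (log2 fold change 0.16, adjusted p = 0.206). Per length, *sesB* was the most abundant of the 9 genes in all 6 groups, with 1141 ± 377 FPKM in RU486 and 2061 ± 266 FPKM in control thoraces of *Act88F-GS* (SD, n = 3 each). By FPKM the *Act88F-GS* controls stood above every other group without overlap, and each of the other neighbours in the order overlapped.

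In *Act88F-GS* thoraces both *sesB* and the flight muscle markers were lower with RU486. As a share of the summed flight muscle markers *sesB* was 10.4%, 10.6% and 10.3% in RU486 samples of *Act88F-GS* and 10.6%, 12.1% and 11.2% in its controls. These values were close, with each RU486 sample slightly below every control. This share was not constant across stocks or tissues. It was 20.2%, 17.3% and 18.1% with RU486 and 20.1%, 18.3% and 20.9% in controls of *w1118*. The marker sum of *w1118* was 14413, 13828 and 16580 CPM with RU486 and 12421, 13160 and 13890 CPM in controls, below that of every *Act88F-GS* sample. In *elav-GS* heads the share was 33.3%, 27.6% and 32.7% with RU486 and 35.9%, 44.0% and 45.2% in controls. The marker sum was higher with RU486 there while *sesB* overlapped. *Act88F* was at most 4.82 CPM in heads, so there the sum is not taken to measure flight muscle. Since the sum still reached 4933, 6647 and 5241 CPM in heads fed RU486, the list is not specific to flight muscle. The shares in thoraces therefore do not set a gene against flight muscle alone. In *Act88F-GS* thoraces the same ratio for *porin* was 5.42%, 4.95% and 3.63% with RU486 and 5.58%, 5.96% and 5.81% in controls. For *Ucp4A* it was 0.294%, 0.303% and 0.260% with RU486 and 0.462%, 0.428% and 0.437% in controls, with no overlap. The marker list includes *Act88F* itself, whose promoter drives GeneSwitch in this stock and which had 280, 395 and 1144 CPM with RU486 and 2778, 2397 and 2433 CPM in controls. Fat body markers, summed over 6 genes, had 1049, 1031 and 343 CPM in RU486 samples and 385, 98.3 and 71.9 CPM in controls. RU486 replicates 1 and 2 were above every control, but replicate 3 lay below control replicate 1, so the groups overlapped. The part of tissue composition in these results was not tested.

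*porin* encodes the voltage-dependent anion channel, the main pore of the outer membrane (chromosome 2L, 10847227 to 10850848, minus strand). With RU486 its level was 906, 922 and 1109 CPM in *Act88F-GS* thoraces, against 1872, 2268 and 2212 CPM in controls. The spread within either group was small beside the gap between them. *porin* fell by 1.19 on the log2 scale (2.28-fold, SE 0.14, adjusted p = 0.00163), and it passed in every alternative fit, including each fit without 1 library. In *w1118* thoraces *porin* had 1060, 864 and 992 CPM with RU486 and 1042, 859 and 987 CPM in controls, nearly the same value in samples with the same replicate number (log2 fold change 0.014, adjusted p = 0.963). In *elav-GS* heads it had 748, 733 and 782 CPM with RU486 and 683, 825 and 777 CPM in controls (log2 fold change 0.035, adjusted p = 0.683). Per length, RU486-fed *Act88F-GS* thoraces (343 ± 39.5 FPKM) overlapped with both *w1118* groups (340 ± 34.7 FPKM with RU486 and 337 ± 32.8 FPKM in controls), and only the *Act88F-GS* controls stood above, at 741 ± 75.1 FPKM. Levels were not compared between stocks by a test, since stock cannot be told apart from whatever else differed between the 3 experiments. The paralogs *CG17139* and *CG17140* are annotated in BDGP6.54 with the same 2398 exon bases on the same strand, so that no read can be given to either alone, and their listed 0 counts in all 18 samples are no measure of expression. The third paralog, *Porin2*, was at most 4.31 CPM in *Act88F-GS* thoraces.

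*Ucp4A* encodes an uncoupling protein of the carrier family (chromosome X, 17844949 to 17848223, plus strand). It showed the largest fall of the 9 genes in *Act88F-GS* thoraces. Its level was 49.2, 56.6 and 79.6 CPM with RU486 and 155, 163 and 166 CPM in controls, and even the highest RU486 sample was far below the lowest control. *Ucp4A* fell by 1.46 on the log2 scale (2.76-fold, SE 0.19, adjusted p = 0.00225), and the change stayed between -1.69 and -1.32 in fits without 1 library, all of which passed. In *w1118* thoraces it had 112, 107 and 117 CPM with RU486 and 101, 111 and 114 CPM in controls (log2 fold change 0.038, adjusted p = 0.796). In *elav-GS* heads it had 41.7, 39.1 and 42.4 CPM with RU486 and 36.5, 45.9 and 44.6 CPM in controls (log2 fold change 0.0086, adjusted p = 0.932). Levels per length were ordered *Act88F-GS* controls, both *w1118* groups, RU486-fed *Act88F-GS* thoraces and both head groups. Only the 2 *w1118* groups overlapped with each other, and the 2 head groups likewise. With RU486 the *Act88F-GS* thoraces, at 29.7 ± 7.62 FPKM, thus lay below *w1118* thoraces, unlike for *porin*. An antisense neighbour, *CG15814*, shares 114 bases of exon with *Ucp4A* and had 47.9, 43.2 and 41.3 CPM with RU486 and 49.2, 51.8 and 52.2 CPM in controls. The libraries were stranded, but the strand setting of the counting is not given in the sources used here.

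*Bmcp*, a carrier of the same uncoupling protein branch named after its expression in the brain, was level throughout (chromosome 3L, 11720934 to 11728118, plus strand). Its 18 values ran from 28.9 to 38.2 CPM, and the groups overlapped in each stock. In *Act88F-GS* thoraces it had 38.2, 35.4 and 33.5 CPM with RU486 and 32.5, 33.0 and 33.6 CPM in controls (log2 fold change 0.033, 95% interval -0.12 to 0.19, adjusted p = 0.715). The log2 fold change was 0.078 in *w1118* thoraces (adjusted p = 0.657) and -0.024 in *elav-GS* heads (adjusted p = 0.800). By FPKM all neighbours in the order of the 6 groups overlapped, heads included. The other uncoupling protein genes of the family, *Ucp4B* and *Ucp4C*, were at most 0.34 CPM in *Act88F-GS* thoraces.

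**Figure D2:**
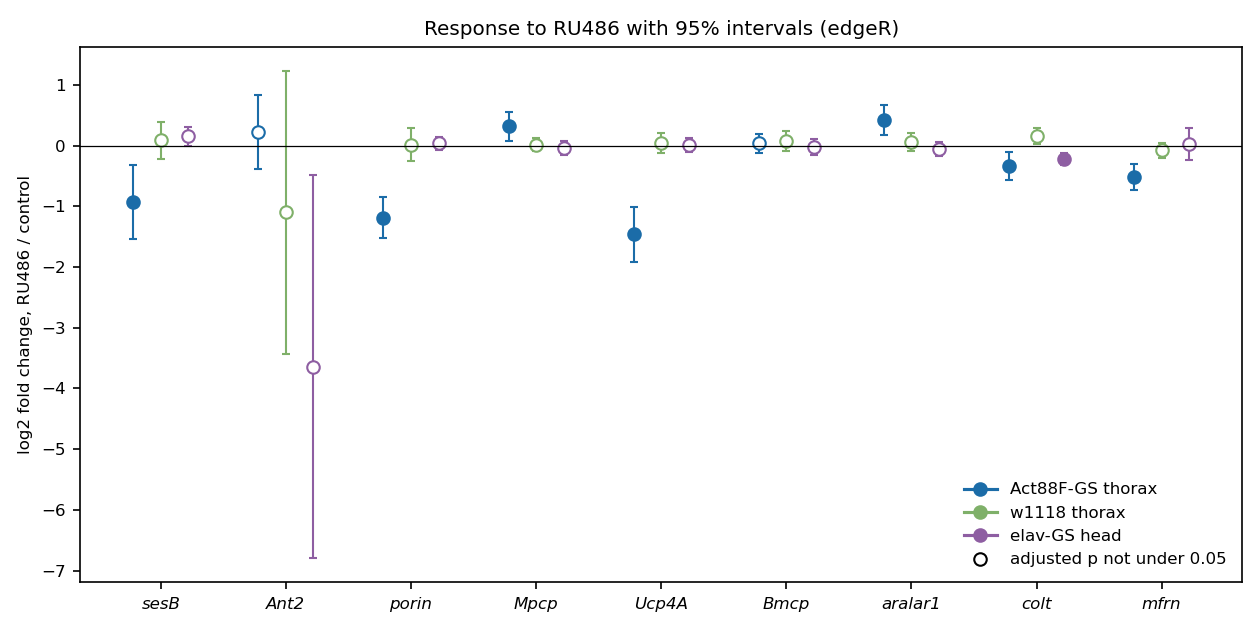
Log2 fold change of RU486 over control for the 9 genes in *Act88F-GS* thoraces, *w1118* thoraces and *elav-GS* heads, with 95% intervals from edgeR. Filled points passed an adjusted p under 0.05. 7 points are filled for *Act88F-GS* thoraces, 0 for *w1118* thoraces and 1 (*colt*) for *elav-GS* heads, and the intervals of *Ant2* are by far the widest.

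*Mpcp* (now *Mpcp2*) encodes a mitochondrial phosphate carrier (chromosome 3L, 14537651 to 14540441, plus strand) and moved against *sesB* and *porin*. It had 676, 710 and 777 CPM in *Act88F-GS* thoraces fed RU486 and 582, 548 and 518 CPM in controls, with no overlap. *Mpcp* rose by 0.31 on the log2 scale (1.24-fold, SE 0.098, adjusted p = 0.0497), just inside the threshold. It no longer passed without the filter on low counts (adjusted p = 0.0738). The call was also lost without RU486 replicate 1 (0.0609), RU486 replicate 2 (0.126), RU486 replicate 3 (0.0795), control replicate 2 (0.140) or control replicate 3 (0.158). In *w1118* thoraces the change was 0.014 (adjusted p = 0.899). In *elav-GS* heads *Mpcp* had 854, 854 and 845 CPM with RU486 and 775, 1005 and 944 CPM in controls, and it did not pass (log2 fold change -0.041, adjusted p = 0.651). Per length, mean *Mpcp* was higher in heads than in any thorax group, at 467 ± 2.87 FPKM with RU486 and 498 ± 65.2 FPKM in controls. Head control replicate 1 (425 FPKM) lay just below *Act88F-GS* RU486 replicate 3 (426 FPKM), so these groups overlapped.

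The paralog *CG9090* (*Mpcp1*) encodes a phosphate carrier too and behaved differently. In *Act88F-GS* thoraces it had 370, 555 and 1398 CPM with RU486 and 1249, 1311 and 1147 CPM in controls. RU486 samples 1 and 2 were far below the controls and sample 3 above them, and the difference did not pass (log2 fold change -0.75, adjusted p = 0.275). *Mpcp* thus took 64.6%, 56.2% and 35.7% of the reads on the pair with RU486 and 31.8%, 29.5% and 31.1% in controls. These shares are higher in all RU486 samples, but sample 3 is close to the controls. In *elav-GS* heads *CG9090* had 104, 162 and 91.9 CPM with RU486 and 47.6, 54.7 and 52.6 CPM in controls, a rise of 1.26 on the log2 scale (2.39-fold, SE 0.23, adjusted p = 0.0392). Without RU486 replicate 3, and with the unequal-variance test, 0 genes of all tested in heads were called higher, so this call was lost. *Mpcp* was the main gene of the pair in heads, with 89.1%, 84.1% and 90.2% of the reads with RU486 and 94.2%, 94.8% and 94.7% in controls. The flight muscle marker sum was also higher here, at 4933, 6647 and 5241 CPM with RU486 and 3868, 3959 and 3765 CPM in controls. *Act88F*, on that list, overlapped at 3.65, 4.82 and 2.64 CPM with RU486 and 4.44, 1.79 and 2.43 CPM in controls. In heads the sum is therefore not taken to measure flight muscle, and its part in the rise of *CG9090* was not tested. In *w1118* thoraces *Mpcp* took 47.1%, 51.4% and 44.5% of the reads with RU486 and 53.5%, 50.2% and 45.7% in controls, and *CG9090* did not pass (adjusted p = 0.721).

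**Figure D3:**
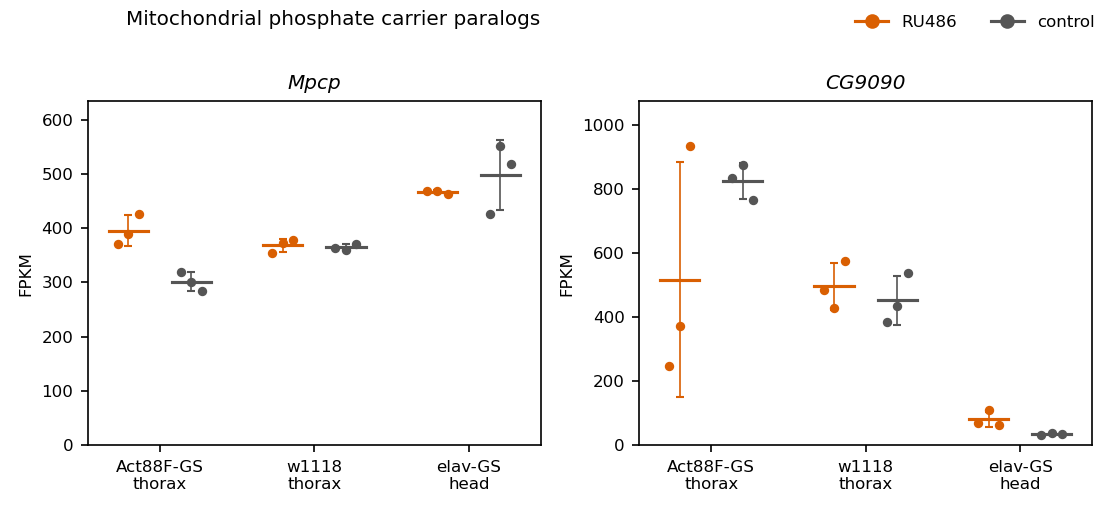
Level of the phosphate carrier genes *Mpcp* and *CG9090* in FPKM (vertical axes start at 0) in RU486 and control samples of the 3 stocks, with group means and SD (n = 3). *CG9090* is low in heads, and its RU486 samples in *Act88F-GS* thoraces spread over the widest range.

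*aralar1* encodes a calcium-regulated aspartate/glutamate carrier of the malate-aspartate shuttle (chromosome 3R, 30445635 to 30455867, minus strand). It was higher in every RU486 sample of *Act88F-GS* thoraces, at 229, 266 and 287 CPM, than in the controls, at 181, 189 and 185 CPM. *aralar1* rose by 0.42 on the log2 scale (1.33-fold, SE 0.10, adjusted p = 0.0242). The call was lost without RU486 replicate 2 (adjusted p = 0.0830), control replicate 1 (0.0507), control replicate 2 (0.0733) or control replicate 3 (0.0807). The change was 0.063 in *w1118* thoraces (adjusted p = 0.665) and -0.060 in *elav-GS* heads (adjusted p = 0.477). As with *Mpcp*, levels per length were highest in heads, at 83.7 ± 3.68 FPKM with RU486 and 90.4 ± 9.24 FPKM in controls. RU486-fed *Act88F-GS* thoraces came next, at 77.2 ± 8.79 FPKM, and overlapped with the heads, while their controls had 54.9 ± 1.12 FPKM.

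*mfrn* encodes mitoferrin, the importer of iron into mitochondria (chromosome 3R, 27942796 to 27948021, minus strand). Its RU486 samples in *Act88F-GS* thoraces were tightly grouped at 140, 136 and 138 CPM, below controls at 167, 205 and 191 CPM. *mfrn* fell by 0.52 on the log2 scale (SE 0.092, adjusted p = 0.00721) and passed without any 1 library. In *w1118* thoraces it had 126.6, 132.2 and 119.3 CPM with RU486 and 135.2, 132.6 and 131.5 CPM in controls (log2 fold change -0.079, adjusted p = 0.609). In *elav-GS* heads the values were 93.2, 104 and 80.9 CPM with RU486 and 90.7, 101 and 90.9 CPM in controls (log2 fold change 0.020, adjusted p = 0.926).

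*colt* (congested-like trachea) encodes the carnitine/acylcarnitine carrier, which brings fatty acids in for oxidation (chromosome 2L, 2768590 to 2770069, minus strand). It had 139, 152 and 170 CPM in *Act88F-GS* thoraces fed RU486 and 183, 188 and 180 CPM in controls, and fell by 0.34 on the log2 scale (SE 0.095, adjusted p = 0.0366). The call was lost when libraries were scaled by total counts (-0.17, adjusted p = 0.148), and without RU486 replicate 1 (0.0947), RU486 replicate 2 (0.122), control replicate 1 (0.0545), control replicate 2 (0.112) or control replicate 3 (0.0898). The antisense neighbour *Taf10*, which shares 23 bases of exon, had 23.8, 23.3 and 23.7 CPM with RU486 and 48.7, 43.8 and 43.8 CPM in controls. In *w1118* thoraces *colt* was higher in every RU486 sample (154, 153 and 162 CPM) than in any control (134, 141 and 147 CPM), but the difference did not pass (log2 fold change 0.15, adjusted p = 0.539). In *elav-GS* heads *colt* had 108, 104 and 109 CPM with RU486 and 114, 142 and 133 CPM in controls, with no overlap. There it fell by 0.23 on the log2 scale (SE 0.039, adjusted p = 0.0316). This call too was lost without RU486 replicate 1 (0.314), RU486 replicate 2 (0.0821), RU486 replicate 3 (0.0928), control replicate 1 (0.0599) or control replicate 2 (0.119), and without the filter on low counts (0.147).

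*Ant2* encodes a second ADP/ATP translocase and lies on the same strand as *sesB*, at 10778954 to 10786907 of chromosome X. The 2 genes share a first exon of 102 bases with no coding sequence, and reads confined to it cannot be given to either. *Ant2* was the least abundant of the 9 genes in *Act88F-GS* thoraces, at 2.27, 3.31 and 4.24 CPM with RU486 and 2.87, 2.75 and 2.33 CPM in controls (log2 fold change 0.22, adjusted p = 0.530). *sesB* took at least 97.2% of the reads on the pair in every sample. In *w1118* thoraces *Ant2* had 2.22, 31.3 and 12.7 CPM with RU486 and 21.4, 38.1 and 39.7 CPM in controls, and the groups overlapped (log2 fold change -1.10, SE 0.91, adjusted p = 0.656). In *elav-GS* heads it had 1.26, 1.57 and 1.56 CPM with RU486 and 39.3, 12.4 and 1.51 CPM in controls. Head control replicates 1 and 2 stood far above all other heads, while control replicate 3 was at the level of the RU486 samples (log2 fold change -3.64, SE 1.23, adjusted p = 0.163). DESeq2 called this difference (adjusted p = 0.0104), as did edgeR without control replicate 3 (adjusted p = 0.0148). With control replicates 1 and 2 both left out, which was chosen after the data were seen, it was 0.035 (adjusted p = 0.962).

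*Ant2* ran with testis transcripts. The summed level of 19 testis markers was 29.8, 682 and 255 CPM in RU486 samples of *w1118* and 446, 796 and 876 CPM in its controls, the same order of samples as for *Ant2* within each group. In heads the sum was 9.8, 11.6 and 9.7 CPM with RU486 and 910, 265 and 11.2 CPM in controls. In *Act88F-GS* thoraces, where *Ant2* stayed at or under 4.24 CPM, it was 12.5, 14.6 and 15.7 CPM with RU486 and 12.3, 10.5 and 11.8 CPM in controls, and 3 of the 19 markers were at 0 in all samples of either group. Markers of the male accessory gland, 9 genes, gave 2.77, 208 and 306 CPM in RU486 samples of *w1118* and 710, 532 and 741 CPM in its controls. The same libraries held the carrier paralogs that are otherwise nearly silent: *Porin2* had 65.6, 18.3 and 0.16 CPM in head controls 1 to 3, and at most 0.30 CPM in heads fed RU486. *Ucp4C* had 12.6 and 3.58 CPM in head controls 1 and 2 and was at 0 in the other 4 heads. The part of testis RNA in the values of *Ant2* was not tested further. Head control replicate 1, which had the highest testis sum, was the lowest of the 3 head controls for each of the other 8 genes. Head control replicate 2, with 265 CPM of testis markers, was the highest of the 3 for each of these 8.

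**Figure D4:**
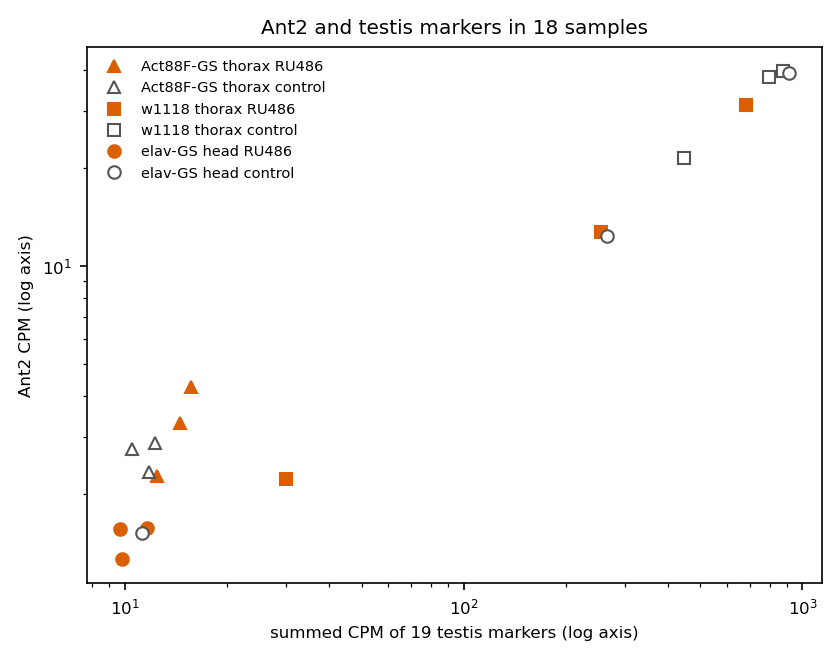
*Ant2* (vertical axis, CPM, log scale) against the summed CPM of 19 testis markers (horizontal axis, log scale) in the 18 samples, with symbols for the 6 groups. The 7 samples on the right, with 255 to 910 CPM of testis markers, are 2 *w1118* RU486 samples, the 3 *w1118* controls and 2 head controls, and these are the samples with the highest *Ant2*.

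In *w1118* thoraces none of the 9 genes passed in either direction. 0% of the 12980 genes tested there were called lower and 0% higher at an adjusted p under 0.05 by edgeR. At an unadjusted p under 0.05 there were 1194 genes, of which *colt* was the only one of the 9, while DESeq2 called 95 genes lower and 195 higher, with 0 of the 9 among them. Values of *Ant2* and of the testis markers show how far these libraries differed within a group. For the other 8 genes the log2 fold changes ran from -0.079 (*mfrn*) to 0.15 (*colt*).

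In *elav-GS* heads 1 of the 9 genes was called lower (*colt*) and 0 higher, where 0.779% of the 10653 genes tested were called lower and 5.00% higher. The largest positive log2 fold change among the 9 was that of *sesB* (0.16), which did not pass.

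The difference between stocks was tested directly, as the RU486 response of *Act88F-GS* thoraces minus that of *w1118* thoraces in 1 fit of the 12 thorax samples. Here too stock cannot be told apart from whatever else differed between the experiments. The response was lower in *Act88F-GS* for 4 of the 9 genes and higher for 0, against 11.9% and 4.29% of the 13019 genes tested. The 4 genes were *Ucp4A* (log2 difference -1.51, SE 0.22, adjusted p = 0.00150), *porin* (-1.22, SE 0.19, adjusted p = 0.00192), *colt* (-0.50, SE 0.11, adjusted p = 0.0160) and *mfrn* (-0.45, SE 0.11, adjusted p = 0.0166). *sesB* missed the threshold at -1.03 (SE 0.31, adjusted p = 0.0521), so that its response was not shown to differ between the thoraces of the 2 stocks. It passed without *Act88F-GS* RU486 replicate 3 (-1.34, adjusted p = 0.00393), without *Act88F-GS* control replicate 1 (adjusted p = 0.0450) and without *w1118* RU486 replicate 2 (adjusted p = 0.0491). Whether replicate numbers pair the *w1118* samples is not settled. With the replicate number as a block *sesB* passed (-1.07, adjusted p = 0.0446) and *mfrn* did not (-0.45, adjusted p = 0.0565). *Mpcp* (0.29, adjusted p = 0.0760) and *aralar1* (0.34, adjusted p = 0.0919) did not pass either, although both had passed in *Act88F-GS* alone. *Mpcp* passed without *Act88F-GS* RU486 replicate 1 (adjusted p = 0.0473) and without control replicate 1 (0.0499), and *aralar1* without RU486 replicate 1 (0.0203). DESeq2 called *sesB* (adjusted p = 0.0118), *Mpcp* (0.00277) and *aralar1* (0.0130) in this comparison. So did edgeR with all 18 samples in 1 fit, for *sesB* (-0.94, adjusted p = 0.0294), *Mpcp* (0.0466) and *aralar1* (0.0285). With total counts *Mpcp* (0.00607) and *aralar1* (0.00701) passed in edgeR, and *Mpcp* with DESeq2's size factors (0.0471). *mfrn* was lost with total counts (adjusted p = 0.115) and with all 18 samples in 1 fit (0.0680).

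Against *elav-GS* heads, the response of *Act88F-GS* thoraces was lower for 4 genes and higher for 2, where 17.3% and 11.3% of the 11388 genes tested were called. Both differences use the same *Act88F-GS* samples, and here stock and tissue cannot be told apart. The lower ones were *Ucp4A* (-1.49, adjusted p = 0.000878), *porin* (-1.24, adjusted p = 0.000309), *sesB* (-1.10, adjusted p = 0.0193) and *mfrn* (-0.56, adjusted p = 0.0166). The call of *sesB* was lost without *Act88F-GS* RU486 replicate 2 (0.0581), control replicate 2 (0.0606), control replicate 3 (0.0532) or head RU486 replicate 2 (0.0601). *aralar1* (0.46, adjusted p = 0.0234) and *Ant2* (3.80, SE 1.20, adjusted p = 0.0419) were the higher ones. Of the 12 fits without 1 library, *aralar1* was called in 3 (without *Act88F-GS* RU486 replicate 1, head control replicate 1 or head control replicate 2), and its adjusted p was 0.0957 at most. Without the filter on low counts it was 0.0553. *mfrn* did not pass with total counts (adjusted p = 0.0908). *Ant2* was called in 1 of these fits, that without head control replicate 3 (4.29, adjusted p = 0.000871), and the difference was 2.28 without head control replicate 1 (adjusted p = 0.0758). Head controls 1 and 2 are the heads that held testis transcripts. *colt* (-0.13, adjusted p = 0.427), *Mpcp* (0.34, adjusted p = 0.0554) and *Bmcp* (0.041, adjusted p = 0.780) did not pass. *Mpcp* was called by DESeq2 (adjusted p = 0.00428), with its size factors in edgeR (0.0409), with total counts (0.00265), with all 18 samples in 1 fit (0.00984) and without head control replicate 1 (0.0377), and *Bmcp* with total counts (0.26, adjusted p = 0.0465).

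Of 48 other mitochondrial transporters that were listed by function, 47 were found and 30 tested in *Act88F-GS* thoraces, of which 15 were lower, 6 higher and 9 not called, where 19.9% of all tested genes were lower and 12.6% higher (median log2 fold change -0.37, against 0.01 over all genes). Of the 3 tested subunits of the mitochondrial pyruvate carrier 2 were lower and 1 higher. *CG9399* had 153, 145 and 148 CPM with RU486 and 299, 304 and 301 CPM in controls and fell by 1.10 on the log2 scale (SE 0.064, adjusted p = 0.000239), and *CG14290* fell by 0.95 (SE 0.097, adjusted p = 0.00100). *CG9396* had 89.2, 80.7 and 73.0 CPM with RU486 and 56.5, 49.9 and 43.4 CPM in controls and rose by 0.62 (SE 0.11, adjusted p = 0.00838). The largest fall was that of *CG18317* (*Rim2*), a pyrimidine nucleotide carrier, by 1.40 (SE 0.15, adjusted p = 0.00127). Among genes with a mean log2 CPM of at least 1, *CG9399* and the carrier *CG18324*, which fell by 1.08 (SE 0.093, adjusted p = 0.000551), came next, and below that level *CG4995* fell by 1.28 (SE 0.31, adjusted p = 0.0216). The dicarboxylate carrier *Dic1* rose by 0.54 (SE 0.065, adjusted p = 0.00173) and *CG18769* (*MCU*), the pore of the calcium uniporter, by 0.46 (SE 0.055, adjusted p = 0.00169). Below a mean log2 CPM of 1, *Tpc2*, a thiamine pyrophosphate carrier, had the largest called rise of the list, 0.91 (SE 0.26, adjusted p = 0.0379). In *w1118* thoraces 0 of 44 tested were called in either direction, as were 0% of all 12980 genes tested. By edgeR 2 of the 44 had an unadjusted p under 0.05, against 1194 of all genes tested. In *elav-GS* heads 29 were tested, 0 were lower and 1 was higher (*CG9090*), where 0.779% of all tested genes were lower and 5.00% higher. The call of *CG9090* was lost in the fits given with that gene above. The response of *Act88F-GS* thoraces was lower than that of *w1118* for 14 of 44 and higher for 3, where 11.9% and 4.29% of all tested genes were called.

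**Figure D5:**
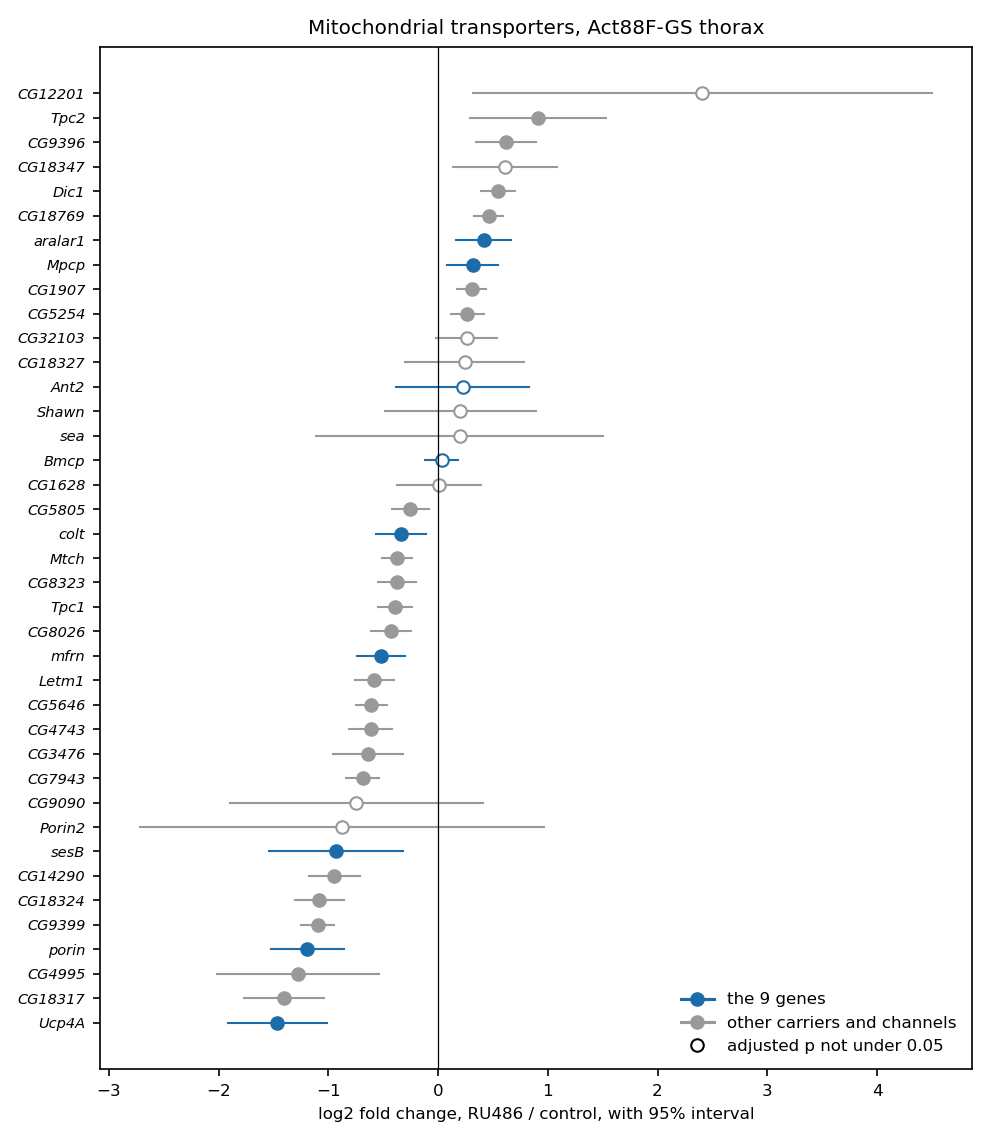
Log2 fold change of RU486 over control in *Act88F-GS* thoraces (horizontal axis) with 95% intervals for the 9 genes and the 30 other mitochondrial transporters tested (rows, ordered by fold change). Filled points passed an adjusted p under 0.05. *Ucp4A* is the lowest point, and *aralar1* and *Mpcp* lie among the raised genes.

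Likeness of pattern was measured as the root mean square difference of log2 CPM over the 18 samples, each gene centred on its own mean, among 9211 genes. The values describe these libraries, which share stock, tissue and treatment, and carry no test. The nearest genes to *sesB* were *l(1)G0334*, a pyruvate dehydrogenase subunit, and *GlyP*, glycogen phosphorylase (0.113 each). The nearest to *porin* were *mRpL24* (0.116) and *mRpL12* (0.129), both of the mitochondrial ribosome. *colt* was nearest to *Scsalpha* (0.0686), a subunit of succinyl-CoA synthetase, and *betaTub97EF* (0.0900), a tubulin. *mfrn* was nearest to *Tpc1*, a thiamine pyrophosphate carrier, and to *Prat* (0.0982 and 0.0983). *Ucp4A* was nearest to *CG3683* (0.128) and *CG7394* (0.152). *Mpcp* was nearest to *Bap55* (0.0604) and *CG42684* (0.0702), *aralar1* to *MTA1-like* (0.0860) and *RN-tre* (0.0890), and *Bmcp*, which varied least, to *CG14184* and *mib1* (0.0788 and 0.0791). *Ant2* had no neighbour as near, with *CG33293* at 0.360 and *Tpc2* at 0.383. Distances are not scaled to the spread of a gene, and *Ant2* varied most (SD 1.85 on the log2 scale, against 0.101 for *Bmcp*). Among the 9 genes themselves the closest pair was *Mpcp* and *aralar1* (0.131), then *mfrn* and *colt* (0.195) and *sesB* and *porin* (0.226).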

How the data were processed

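The deposited values were counts of reads per gene symbol, without normalization. The authors mapped stranded mRNA reads with StrongARM to BDGP5.75 and counted them with HTSeq, and the submitters' processing notes also name BWA, STAR and dm3. Samples were grouped by stock, tissue and treatment in the labels. In R 4.3.3, edgeR 4.0.16 (TMM, filterByExpr, robust quasi-likelihood test, Benjamini-Hochberg adjustment over all genes tested) was fitted to the 6 samples of each stock, and to 12 samples for differences of response. The steps were tested on simulated data. CPM values used TMM over all 18 samples. Lengths for FPKM came from BDGP6.54, a later build. Of 15682 symbols, 11943 matched by current symbol, 3426 by synonym and 313 did not match. Reads assigned to more than 1 gene were 2.32% to 3.66%, and stayed out of the counts. In *Act88F-GS* thoraces, reads without a unique alignment were 5.28%, 5.31% and 5.81% with RU486 and 8.07%, 9.66% and 9.40% in controls. Reads outside annotated genes were 9.13%, 8.86% and 9.43% with RU486 and 11.6%, 13.3% and 13.0% in controls. The part of these differences in the results was not tested. No replicate pair held identical counts.

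The 9 genes and the other transporters were listed with earlier results of these data known. Genes named beside them were the 3 largest rises and falls of that list per stock (adjusted p under 0.05, no overlap, mean log2 CPM of at least 1) and the 2 nearest genes in pattern. *CG14290*, *CG4995*, *Tpc2* and paralogs of the 9 genes were named outside this rule. Deviations of *w1118* samples with the same replicate number correlated at 0.252 to 0.536 in all 3 pairs, but pairs with different numbers ran from -0.560 to 0.419. RU486 replicate 2 with control replicate 3 (0.419) exceeded the same-number pairs at 0.402 and 0.252. Whether the numbers pair these samples is thus not settled, and the main fits used no block. In *Act88F-GS* and head samples same-number pairs ran from -0.0302 to 0.00757 and from -0.144 to 0.153. Alternatives were DESeq2 1.42.0, other scalings, no filter, a replicate block, all 18 samples together, an unequal-variance test on log2(CPM + 1) and leaving out each sample. Promoter and protein sequences were not analysed here.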

Additional observations from a re-analysis of the deposited data

Results flagged for a closer look

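For 10 pairs of gene and comparison the RU486 response differed between stocks by the test of the difference itself (edgeR's quasi-likelihood test, Benjamini-Hochberg adjusted over all genes tested). Against *w1118* thoraces the response of *Act88F-GS* thoraces differed on the log2 scale by -1.22 for *porin* (adjusted p = 0.00192), -0.45 for *mfrn* (adjusted p = 0.0166), -0.50 for *colt* (adjusted p = 0.0160) and -1.51 for *Ucp4A* (adjusted p = 0.00150). In all 3 *Act88F-GS* samples fed RU486 each of these genes lay below every control of that stock. Against *elav-GS* heads the differences were -1.10 for *sesB* (adjusted p = 0.0193), 3.80 for *Ant2* (adjusted p = 0.0419), -1.24 for *porin* (adjusted p = 0.000309), -0.56 for *mfrn* (adjusted p = 0.0166), -1.49 for *Ucp4A* (adjusted p = 0.000878) and 0.46 for *aralar1* (adjusted p = 0.0234). Both sets share the *Act88F-GS* samples, and heads and thoraces differ in stock and tissue together. In either set stock cannot be told apart from whatever else differed between the experiments. The value of *Ant2* depends on the head controls that held testis transcripts.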

How the results depend on the processing

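*porin* kept its direction and call in *Act88F-GS* thoraces under all 13 alternatives, *Ucp4A* and *mfrn* under 12 (the unequal-variance test gave adjusted p = 0.0868 and 0.110). Over all alternatives 88 of 117 single values for *Act88F-GS* thoraces kept direction and call, 110 of 117 for *w1118*, 95 for heads (9 lost a call, 3 gained one and 19 turned), 141 of 162 for the difference from *w1118* and 123 of 162 for that from heads. With 3 samples per group, calls near the threshold turn on single libraries. Total counts moved the median of all genes in *Act88F-GS* to 0.18, against 0.01 with TMM, and that of the 9 genes to -0.17. The causes of these shifts were not tested.

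In *Act88F-GS* thoraces all genes called were 2112 lower and 1332 higher, and 1264 and 2631 with total counts. Of the 9 genes 1 was higher, in place of 2, without the filter and with the replicate block, with which 877 of all genes were higher. The unequal-variance test called 1 of the 9 lower and 0 higher, with 858 and 297 of all genes. Without 1 library at a time 3 to 5 of the 9 were lower and 0 to 1 higher, with 1378 to 2296 and 660 to 1391 of all genes. In *w1118*, DESeq2 called 95 genes lower and 195 higher, in place of 0 and 0.

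In heads (1 of the 9 lower, 83 and 533 of all genes), DESeq2 called 2 of the 9 lower, with 870 and 1032 of all genes. No filter gave 0 of the 9, with 27 and 223. The replicate block gave 0, with 19 and 149. All 18 samples in 1 fit gave 2, with 2676 lower. The unequal-variance test gave 0, with 0 and 0. Without head controls 1 and 2 the test called 0 of the 9, with 0.166% of all genes lower and 1.19% higher (0.779% and 5.00% with all 6 heads). Leaving out 1 library gave 0 to 2 of the 9, with 0 to 2511 and 0 to 870.

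For the difference from *w1118* (0 of the 9 higher, 1545 and 559 of all genes), DESeq2 called 2 higher (1268 of all genes), total counts 2 (851 lower and 1353 higher), DESeq2's size factors 1 and all 18 samples 2. Leaving out 1 library gave 0 to 2, with 307 to 649. For the difference from heads (2 higher, 1974 and 1284 of all genes), DESeq2 called 1974 of all genes higher, total counts 4 of the 9 (1243 lower and 2723 higher of all), no filter 1, the replicate block 1 (739 of all) and all 18 samples 2311 of all. Leaving out 1 library gave 0 to 2, with 342 to 2330.

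Directions turned for values near 0, and for *Ant2* in heads (-3.64). In *w1118*, total counts gave -0.0066 for *Mpcp* and -0.0056 for *porin*. In heads *Ucp4A* was -0.0030 with DESeq2, -0.0019 with its size factors, -0.029 with total counts, -0.043 with all 18 samples and -0.040 without controls 1 and 2. There *porin* was -0.0038 and -0.015, and *mfrn* -0.017 and -0.025, with total counts and all 18 samples, *Bmcp* 0.012 without the filter and *Ant2* 0.035 without controls 1 and 2. In the differences, total counts and all 18 samples gave 0.15 and 0.035 for *Bmcp* against *w1118*, and 0.089 and 0.019 for *colt* against heads. Leaving out 1 library gave -0.013 to 0.083 for *Bmcp* in *Act88F-GS*, -0.0040 to 0.066 for *Mpcp*, -0.061 to 0.092 for *porin* and -0.010 to 0.11 for *Ucp4A* in *w1118*, -0.075 to 0.10 for *mfrn*, -0.071 to 0.032 for *Bmcp* and -0.023 to 0.053 for *Ucp4A* in heads, and -0.062 to 0.077 for *Bmcp* in the difference from heads.

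The numbers gave no sign of pairing in *Act88F-GS* or head samples, and in *w1118* the pairing is not settled. With the replicate block *Mpcp* (adjusted p = 0.145) and *colt* (0.0725) lost their calls in *Act88F-GS*, *colt* (0.149) in heads and *Ant2* (0.202) in the difference from heads, while 0 of the 9 were called in *w1118* with or without it. Against *w1118* it changed the calls of *sesB* and *mfrn*, given above, and no others.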
